A study of Mus musculus with 12 samples.

Results

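CT18, the middle of the subjective night, was compared with CT0, the start of the subjective day, in the mouse hippocampus. The 6 samples were the 3 arrays labelled CT18 (mice 14, 15 and 16, after 30 hours of continuous darkness) and the 3 labelled CT0 (mice 1, 2 and 3, after 36 hours), out of 12 arrays in the series. All mice were adult wild-type males held in constant darkness, and neither strain nor age in weeks is given in the sources used here. The remaining 6 arrays, 3 mice at CT6 after 42 hours and 3 at CT12 after 48 hours, entered the fit to estimate the spread between mice. Total RNA of each mouse was labelled with Cy3 and hybridised to its own 1-colour Agilent array. In constant darkness no light signal separates the times, so that a difference between CT18 and CT0 can come from the internal clock or from the 6 additional hours in darkness, which cannot be told apart here. P-values measure the spread between these mice, whose number limits the precision of every value.

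The mammalian clock is a loop in which CLOCK and BMAL1 (the product of Arntl) bind E-box sequences and drive the genes of their own repressors, the PER and CRY proteins. A second loop adds the repressors REV-ERB alpha and beta (Nr1d1 and Nr1d2) and the ROR activators, which compete at ROR elements of Arntl, and D-box factors such as DBP relay the rhythm to output genes. The hippocampus, a region needed for spatial and episodic memory, holds such a clock. The endoplasmic reticulum (ER) folds secreted and membrane proteins with the chaperone BiP, lectin chaperones and disulfide isomerases, and the unfolded protein response raises the genes of these helpers when the folding load grows.

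Values are log2 intensities relative to the 75th percentile of the array, and every difference is CT18 minus CT0 on that scale. The fit covered 24087 genes, 16095 of them with a RefSeq symbol. No gene passed an adjusted p of 0.05 (limma, Benjamini-Hochberg over all genes), which makes the called share 0%. The smallest adjusted p was 0.0972, for Sdf2l1. An unadjusted p under 0.05 was found for 346 genes with a higher mean at CT18 (1.44%) and 617 with a lower one (2.56%). The 3 CT18 mice lay above all 3 CT0 mice for 1434 genes (5.95%) and below them for 1278 (5.31%), and 11668 genes (48.4%) had a difference above 0. Among the 6022 genes with the highest level the share above 0 was 74.3%, and 8.27% did not overlap in the higher direction. The statements on single genes below therefore give values, intervals and adjusted p, and none of them is a call.

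The 5 arrays other than CT0 mouse 3 had between 61.2% and 64.7% of 59305 non-control spots well above background, against 77.1% on CT0 mouse 3. On that array 5948 probes were well above background that were so on none of the other 11 arrays, where the same count ran from 22 to 305. None of these probes entered the test. The scanner software marked the array of CT0 mouse 1 for evaluation and the other 11 as in range, and its median local background was 100, against 25 to 37 on the others. Correlations across genes ran from 0.991 to 0.993 within CT18, from 0.986 to 0.995 between CT18 and CT0, and from 0.984 to 0.989 within CT0. The lists of CA pyramidal cell markers and of dentate granule cell markers were well above background on all 6 arrays for 10 of 10 genes each. Genes of the choroid plexus, which secretes cerebrospinal fluid (10 measured on its list), were high in 1 mouse of each compared time. Relative to the gene means over 12 arrays the list median was 2.68 in CT18 mouse 14 and 3.81 in CT0 mouse 1. It was between -2.35 and -1.87 in the other 4 compared mice. It was also high in CT6 mouse 7 (2.715), CT12 mouse 10 (3.46) and CT12 mouse 11 (1.845). Below, the 2 arrays rich in choroid plexus genes are those of CT18 mouse 14 and CT0 mouse 1 alone. CT12 mouse 11 carried cerebellar genes (list median 4.60) and correlated at 0.945 to 0.965 with the other arrays. Its list medians were -2.42 for CA pyramidal and -1.65 for dentate granule markers. This array stayed in the main fit. Without it 5 genes passed (0.0208%): Sdf2l1, P4ha1 and Zbtb40 were higher at CT18, and Nxnl2 and Wfdc6b lower (the last was named after its values were seen). Each of the 3 slides held 1 array of every time. CT18 and CT0 arrays kept their own position from slide to slide, and an effect of position cannot be told apart from one of time.

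Genes of protein folding in the ER led the comparison. Sdf2l1, Hspa5, Manf and Creld2 had 4 of the 7 smallest p-values of all 24087 genes, each with every CT18 mouse above every CT0 mouse. Mean levels at CT18 were between 1.74 and 2.48 times those at CT0. The plot of ER genes by mouse shows these 4 and 4 further members, picked after their values were seen.

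Sdf2l1 encodes an ER protein that works in the BiP chaperone complex, and its probe lies on mm9 chromosome 16 from 17130426 to 17130485. Its levels were 0.86, 0.93 and 1.18 in CT18 mice 14, 15 and 16, against 0.01, -0.41 and -0.56 in CT0 mice 1, 2 and 3. Every CT18 mouse lay above every CT0 mouse, and the gap between the groups was larger than the range within either. The difference was 1.31 ± 0.15 (SE, n = 3 per time; 95% interval 0.98 to 1.63; 2.48-fold; adjusted p = 0.0972). Hspa5, the gene of BiP itself, had levels of 5.15, 5.17 and 5.38 at CT18, against 4.50, 4.31 and 4.11 at CT0. Its difference was 0.93 ± 0.12 (0.67 to 1.19; 1.91-fold; 0.108), again without overlap. Manf, an ER-resident neurotrophic factor, had levels of 2.04, 1.97 and 2.18 at CT18 and 1.36, 1.09 and 0.99 at CT0, a difference of 0.92 ± 0.12 (0.66 to 1.18; 1.89-fold; 0.108). Creld2, a secreted protein known as a marker of ER stress, had levels of 3.57, 3.41 and 3.55 at CT18 and 2.97, 2.55 and 2.61 at CT0, a difference of 0.80 ± 0.12 (0.53 to 1.07; 1.74-fold; 0.193).

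For all 4 of these genes CT0 mouse 1, the array marked for evaluation, was the highest CT0 mouse, and the difference within slide 3, which it shared with CT18 mouse 14, was the smallest of the 3 slides. Within slides 1, 2 and 3 the difference of Sdf2l1 was 1.34, 1.74 and 0.85, and that of Hspa5 0.86, 1.27 and 0.65. Without CT0 mouse 1 the difference of Sdf2l1 was 1.47 (adjusted p = 0.0161) and that of Hspa5 1.02 (0.0757). Without CT0 mouse 3 the difference of Sdf2l1 was 1.19 (adjusted p = 0.249) and that of Hspa5 0.83 (0.423). Over the repeats that each left out 1 of the 12 arrays, the adjusted p of Sdf2l1 ran from 0.0161 to 0.675, and with slide as a block it was 0.28.

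**Figure D1:**
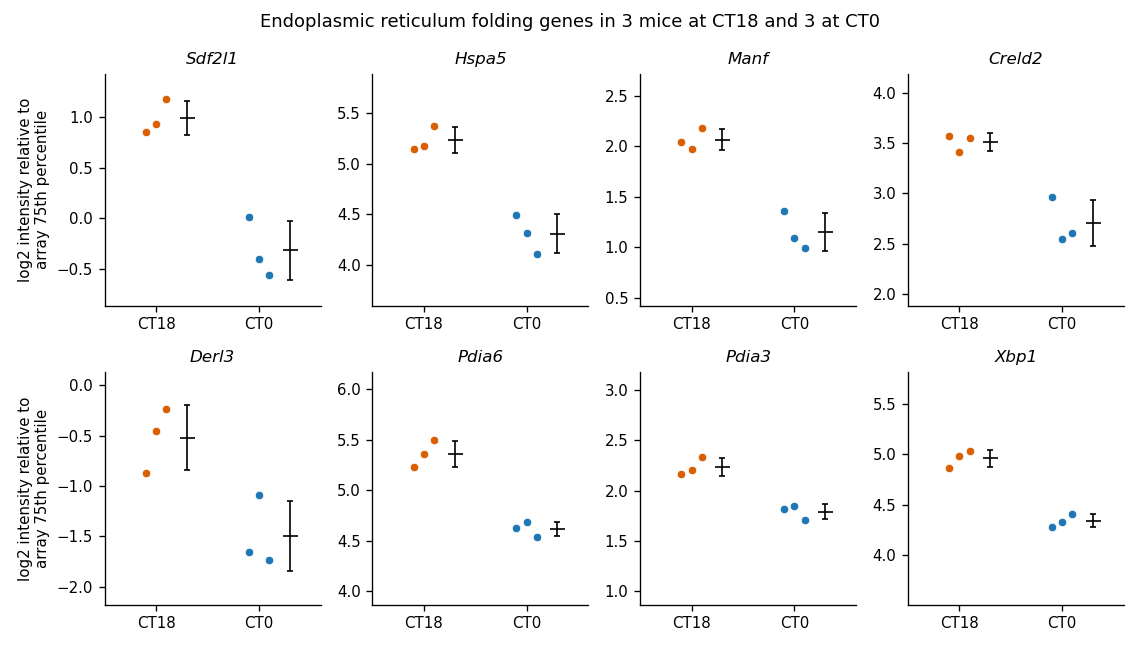
Level (log2 intensity minus the 75th percentile of the array) for 8 ER genes in 3 mice at CT18 (left of each panel) and 3 at CT0 (right); dots are mice, the bars to their right are mean and SD, and every panel spans the same number of log2 units. In each of the 8 genes the 3 CT18 mice lie above the 3 CT0 mice, from a difference of 0.44 for Pdia3 to 1.31 for Sdf2l1.

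Promoters of ER folding genes can carry the ER stress element, which is CCAAT, a spacer of 9 bases and CCACG, the site of the factors ATF6 and NF-Y. It was searched on both strands of the RefSeq promoters (GRCm38.p6), which hold 250 bases before and 50 after each gene's start, and it was found in 39 of 32851 of them (0.119%). Of the 65 genes in the 4 ER lists 54 had a promoter in the table, and 10 of these held the element (18.5%): Calr, Canx, Creld2, Dnajc3, Hsp90b1, Hspa5, Ero1b, Pdia6, Derl3 and Syvn1. The promoters of 4 genes with non-overlapping levels are printed here because they show the element in ER genes with large differences. Capitals mark its CCAAT and CCACG ends, which read CGTGG and ATTGG where the element lies on the opposite strand.
Hspa5, chr2:34771840-34772139, forward strand: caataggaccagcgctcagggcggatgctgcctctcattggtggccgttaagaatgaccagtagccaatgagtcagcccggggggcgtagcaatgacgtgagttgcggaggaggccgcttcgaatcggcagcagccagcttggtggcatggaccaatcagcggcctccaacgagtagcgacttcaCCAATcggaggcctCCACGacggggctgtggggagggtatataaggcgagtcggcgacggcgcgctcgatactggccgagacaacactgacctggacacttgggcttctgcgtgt
Creld2, chr15:88819396-88819695, forward strand: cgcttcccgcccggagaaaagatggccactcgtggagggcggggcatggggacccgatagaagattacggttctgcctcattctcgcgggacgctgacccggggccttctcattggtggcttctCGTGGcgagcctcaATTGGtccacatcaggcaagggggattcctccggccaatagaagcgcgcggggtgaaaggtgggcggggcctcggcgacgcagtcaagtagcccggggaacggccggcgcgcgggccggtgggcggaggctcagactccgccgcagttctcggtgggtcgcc
Pdia6, chr12:17266339-17266638, forward strand: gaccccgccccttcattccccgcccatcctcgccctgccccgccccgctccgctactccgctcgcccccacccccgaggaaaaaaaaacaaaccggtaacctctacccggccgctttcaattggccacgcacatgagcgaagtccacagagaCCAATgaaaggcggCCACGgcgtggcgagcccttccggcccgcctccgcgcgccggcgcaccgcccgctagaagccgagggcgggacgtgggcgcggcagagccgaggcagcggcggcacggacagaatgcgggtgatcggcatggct
Derl3, chr10:75893148-75893447, forward strand: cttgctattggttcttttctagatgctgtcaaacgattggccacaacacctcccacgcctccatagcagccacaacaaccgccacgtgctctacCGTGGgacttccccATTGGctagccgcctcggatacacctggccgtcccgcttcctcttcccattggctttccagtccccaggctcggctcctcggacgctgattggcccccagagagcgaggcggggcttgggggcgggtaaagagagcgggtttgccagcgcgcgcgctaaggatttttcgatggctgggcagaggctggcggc

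The element began 65 bases before the start of Hspa5, 126 before that of Creld2, 98 before that of Pdia6 and 156 before that of Derl3. Measured genes with the element numbered 20, with a median difference of 0.18 and 17 above 0, against 48.4% of all genes. Of the 20, 7 did not overlap in the higher direction, against 5.95% of all genes, and these 7 were all members of the ER lists. The 10 of the 20 outside the ER lists had a median of 0.05, with 7 above 0 and 0 not overlapping. The 44 ER genes whose promoter lacked these letters had a median of 0.08, with 35 above 0. Of these 44, 12 did not overlap in the higher direction and 1 in the lower, so that separated groups were also found without the element. Sdf2l1, with the largest difference of the ER genes, and Manf are not among the 10 genes above. Only 54 of the 65 ER genes had a promoter in the table, so absence from the 10 need not mean a missing element. A match describes the sequence, and no factor binding was measured here.

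Of the 16 ER chaperones and their partners 14 had a difference above 0, with a median of 0.26 against -0.01 over all genes. In 8 of the 16 the CT18 mice lay above the CT0 mice, against the 5.95% of all genes, and 9 had an unadjusted p under 0.05 in that direction, against 1.44%. Beside the leading 4, Dnajb11, a cochaperone of BiP, differed by 0.47, Hyou1, an exchange factor of BiP, by 0.39 and Hsp90b1, the ER member of the HSP90 family, by 0.26. The lectin chaperones Calr and Canx had differences of 0.26 and 0.16 with overlapping groups. The members did not all lie on one side. Cdnf, the paralog of Manf, was lower at CT18 in all 3 mice (-0.48), and Sil1, another exchange factor of BiP, had a difference of -0.16 with overlapping groups. None of the 16 was called.

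Among 13 disulfide enzymes of the ER 11 had a difference above 0 (median 0.10) and 5 did not overlap in the higher direction, against 5.95% of all genes. Pdia6, a disulfide isomerase that associates with BiP, had levels of 5.23, 5.36 and 5.49 at CT18, against 4.62, 4.68 and 4.54 at CT0. The groups were separated by more than the range within each, and the difference was 0.75 ± 0.16 (95% interval 0.40 to 1.09; adjusted p = 0.653), although its second probe gave 0.45. Pdia4 differed by 0.74 ± 0.20 (0.29 to 1.18; adjusted p = 0.995) and Pdia3, which folds glycoproteins with the lectin chaperones, by 0.44 ± 0.09 (0.23 to 0.65; 0.653). Ero1b, an oxidase that recharges these isomerases, differed by 0.26, while Pdia5 had a difference of -0.20.

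Of 21 genes of the unfolded protein response and of ER-associated degradation (ERAD), the route that returns misfolded proteins to the cytosol, 16 had a difference above 0 (median 0.16) and 7 did not overlap in the higher direction (5.95% of all genes). Derl3, a derlin of the ERAD channel, had levels of -0.87, -0.46 and -0.24 at CT18, against -1.66, -1.09 and -1.74 at CT0, a difference of 0.97 ± 0.19 (0.55 to 1.40; adjusted p = 0.597). Xbp1, whose product drives ER genes after its mRNA is spliced by IRE1, had levels of 4.86, 4.99 and 5.03 at CT18, against 4.28, 4.33 and 4.41 at CT0. Its difference was 0.62 ± 0.13 (0.32 to 0.92; 0.654) and nearly equal within the 3 slides (0.66, 0.62 and 0.58). It was measured by 1 probe, and spliced and unspliced forms were not told apart here. Herpud1, a partner of the ERAD ligase, differed by 0.46 and Derl2 by 0.31, and Ddit3, the gene of the stress factor CHOP, by 0.27. The sensors themselves lay closer to 0, with differences of 0.19 for Atf6, 0.11 for Eif2ak3 (PERK) and -0.05 for Ern1 (IRE1). Trib3 and Chac1, targets of the ATF4 arm, had differences of -0.24 and 0.07 with overlapping groups.

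The translocation machinery, which carries new proteins into the ER, had 13 of 15 genes above 0 (median 0.10), and the largest of its differences was 0.22, for the channel subunit Sec61a1. Over the 4 ER lists 54 of 65 genes lay above 0, against 48.4% of all genes. In 25 the groups did not overlap in the higher direction (5.95% of all genes) and in 1 in the lower (5.31%). A difference above 0 within each of the 3 slides was found for 36, against 18.2% of all genes. Of these 65 genes 30 belonged to the 6022 with the highest level, where 74.3% lay above 0 and 8.27% did not overlap in the higher direction. The median of the 65 was 0.12 with all 6 arrays, 0.12 without CT0 mouse 3 and 0.15 without the 2 arrays rich in choroid plexus genes. As bulk tissue was measured, more RNA per cell and more cells of a type that is rich in these genes cannot be told apart.

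Cytosolic chaperones were considered next. Of 24 measured heat shock genes and HSP90 partners 22 had a difference above 0 (median 0.21, against 0.26 for the ER chaperones and 0.12 over the 4 ER lists). In 10 the groups did not overlap in the higher direction, against 5.95% of all genes and 8.27% of the 6022 with the highest level, to which 16 of the 24 belonged. Chordc1, a cochaperone of HSP90, had levels of 2.49, 2.33 and 2.50 at CT18, against 1.90, 2.0 and 1.94 at CT0. The CT18 mice lay above the CT0 mice and the difference was 0.49 ± 0.09 (0.28 to 0.70; adjusted p = 0.597). Hspb1, a small heat shock protein, differed by 0.93 ± 0.25 (0.37 to 1.48; 0.973), the cochaperone Dnajb1 by 0.43 ± 0.10 (0.20 to 0.66; 0.830) and the small heat shock protein Cryab by 0.42 ± 0.12 (0.15 to 0.69; adjusted p = 1). Hspa8, the abundant constitutive HSP70, had a difference of -0.09 with overlapping groups. The heat shock element, searched on both strands as GAA, TTC and GAA with 2 bases between neighbours, was found in 0.603% of all promoters and in 4 of the 20 promoters of list members in the table (Chordc1, Hspd1, Hspe1 and Hsph1). The 72 measured genes with the element had a median difference of 0.03, with 41 above 0, against 48.4% of all genes. In 8 of them the groups did not overlap in the higher direction (5.95% of all genes) and in 4 in the lower (5.31%). The promoter of Chordc1 is printed because it holds 3 overlapping matches at its start, whose fixed letters are in capitals.
Chordc1, chr9:18292017-18292316, forward strand: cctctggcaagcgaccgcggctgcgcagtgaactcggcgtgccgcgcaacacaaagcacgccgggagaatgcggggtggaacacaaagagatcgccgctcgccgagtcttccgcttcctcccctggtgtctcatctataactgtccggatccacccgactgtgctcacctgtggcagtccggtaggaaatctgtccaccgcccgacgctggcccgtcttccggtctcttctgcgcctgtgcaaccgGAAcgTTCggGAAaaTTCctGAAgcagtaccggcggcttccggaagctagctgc

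The 10 clock repressors had a median difference of 0.20, with 8 above 0, against 48.4% of all genes. In 4 the groups did not overlap in the higher direction (5.95% of all genes) and in 1 in the lower (5.31%). Per2 had the smallest p of the 10 repressors and the rank of 9 among all genes. Its levels were -0.68, -0.83 and -0.71 in CT18 mice 14, 15 and 16, against -1.37, -1.54 and -1.44 in CT0 mice 1, 2 and 3. The groups lay far apart relative to their SD of 0.08 and 0.09, and the difference was 0.71 ± 0.11 (95% interval 0.46 to 0.96; 1.64-fold; adjusted p = 0.248). Within the 3 slides it was 0.70, 0.74 and 0.69. Per3 had levels of -1.71, -1.58 and -1.55 at CT18, against -2.02, -2.33 and -2.09 at CT0, a difference of 0.53 ± 0.12 (0.27 to 0.80; 1.45-fold; 0.666). Per1, the third period gene, differed by 0.25 ± 0.13 (-0.03 to 0.54; adjusted p = 1) with overlapping groups.

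The REV-ERB genes lay on opposite sides. Nr1d1 had levels of -0.34, -0.12 and -0.24 at CT18, against 0.00, 0.10 and 0.00 at CT0, and was lower in every CT18 mouse (difference -0.27 ± 0.10; -0.50 to -0.04; adjusted p = 1). Nr1d2 had levels of 1.35, 1.27 and 1.25 at CT18, against 0.97, 0.90 and 0.99 at CT0, and was higher in every CT18 mouse (0.33 ± 0.13; 0.04 to 0.63; adjusted p = 1). Whether the 2 differ from each other in this respect was not tested. Bhlhe40, a repressor that binds E-boxes, differed by 0.18 without overlap, and Ciart, another repressor of CLOCK and BMAL1, by 0.23 ± 0.15 with overlapping groups. Cry1 (0.17 ± 0.25), Cry2 (0.06 ± 0.10) and Bhlhe41 (-0.07 ± 0.28) had intervals on both sides of 0. Cry1 and Ciart moved with the scaling, to 0.93 and 0.65 under quantile normalization (adjusted p = 1 for both), and Cry1 was at -0.13 without the 2 arrays rich in choroid plexus genes.
The D-box, searched as TTATGNAA on both strands, was found in 3.38% of all promoters and in 2 of the 8 promoters of repressors in the table, those of Per1 and Per3. The promoter of Per3, 1 of the 4 repressors that were higher in every CT18 mouse, holds the motif 2 times and is printed with its fixed letters in capitals. The E-box CACGTG was found in 7.15% of all promoters and in those of 4 of the 8 repressors (Bhlhe41, Ciart, Cry1 and Per1), and of these 4 none had groups that did not overlap.
Per3, chr4:151044616-151044915, reverse strand: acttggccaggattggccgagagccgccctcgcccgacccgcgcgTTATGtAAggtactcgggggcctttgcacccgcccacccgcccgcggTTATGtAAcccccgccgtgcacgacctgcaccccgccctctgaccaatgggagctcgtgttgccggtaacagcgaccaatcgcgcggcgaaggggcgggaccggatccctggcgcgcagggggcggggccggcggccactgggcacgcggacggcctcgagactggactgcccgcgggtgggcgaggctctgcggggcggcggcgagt

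On the activator side Arntl, the gene of BMAL1, had levels of 0.90, 0.91 and 0.98 at CT18, against 1.04, 1.41 and 1.31 at CT0. It was lower in every CT18 mouse, with a difference of -0.32 ± 0.11 (-0.57 to -0.07; adjusted p = 1). Clock differed by 0.02 ± 0.08 (-0.15 to 0.20), and the paralogs Npas2 and Arntl2 by -0.13 ± 0.63 and 0.08 ± 0.19. Of the D-box factors Dbp differed by 0.43 ± 0.17 (0.05 to 0.81; adjusted p = 1) with overlapping groups and with -0.04 within slide 3, and Tef by 0.29 ± 0.13 without overlap. Hlf (0.17 ± 0.17) and the D-box repressor Nfil3 (0.06 ± 0.20) had intervals on both sides of 0, as did Rora (-0.20 ± 0.35) and Rorb (0.08 ± 0.21), genes of ROR factors. The plot of clock genes shows Per2 and Per3 as the 2 whose intervals lie farthest from 0.

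**Figure D2:**
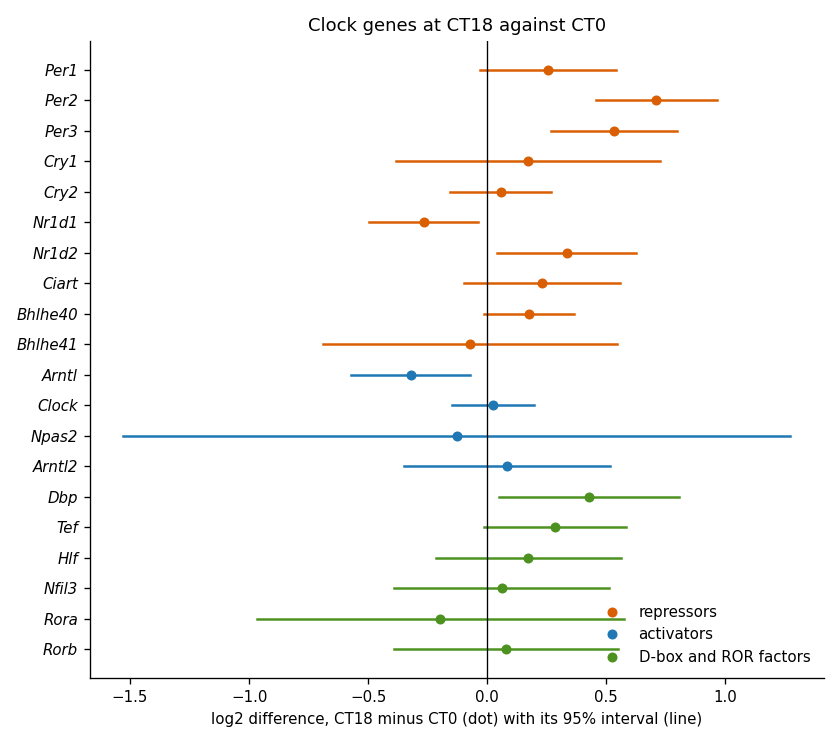
Log2 difference, CT18 minus CT0, of 20 clock genes (dots) with 95% intervals of the limma fit (lines), in 3 mice per time; repressors are orange, activators blue, and D-box and ROR factors green. Per2, Per3, Nr1d2 and Dbp have intervals above 0, Nr1d1 and Arntl intervals below 0, and the other 14 intervals include 0; no gene passed after adjustment over all genes.

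Of 10 clock kinases and ubiquitin ligases 9 had a difference above 0, from -0.14 for Fbxl21 to 0.20 for Fbxw11, both subunits of ligases that mark clock repressors. Among 16 clock outputs 10 lay above 0 (median 0.12) and 5 did not overlap in the higher direction, against 5.95% of all genes. Their median was 0.03 without CT0 mouse 3 and 0.05 without the 2 arrays rich in choroid plexus genes, with 8 of 16 above 0 in both cases. Tsc22d3, which encodes the glucocorticoid-induced leucine zipper GILZ, had levels of 3.44, 3.43 and 3.19 at CT18, against 2.60, 2.94 and 2.81 at CT0, a difference of 0.57 ± 0.13 (0.29 to 0.86; adjusted p = 0.706). Lonrf3 differed by 0.40 and Coq10b, a gene of coenzyme Q function, by 0.34, while the ubiquitin protease Usp2 had a difference of -0.11 with overlapping groups.

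Glucocorticoid hormone follows a daily rhythm and activates its receptor in hippocampal cells. Of 24 glucocorticoid-responsive genes 18 had a difference above 0 (median 0.21), against 48.4% of all genes and 74.3% of the 6022 with the highest level. The lists share members, and Tsc22d3 and Per1, given above, also count here. In 6 the groups did not overlap in the higher direction, against 5.95% of all genes and 8.27% of the 6022 with the highest level, where 12 of the 24 lie. Plin4, a lipid droplet protein, had levels of 0.38, -0.10 and -0.56 at CT18, against -0.80, -1.18 and -1.27 at CT0. The difference was 0.99 ± 0.27 (0.38 to 1.60; adjusted p = 1), and the 3 CT18 mice spread over nearly 1 log2 unit. Hif3a differed by 0.66 ± 0.23 with overlapping groups, and its 3 probes ranged from -0.73 to 0.66. Errfi1, a feedback inhibitor of the EGF receptor, differed by 0.39 ± 0.11 (0.15 to 0.63; adjusted p = 1). Sgk1, a kinase induced by corticosteroids, had levels of 2.18, 2.77 and 2.44 at CT18 and 2.39, 1.95 and 1.96 at CT0, which overlap (0.37 ± 0.20). Lcn2 and the metallothionein gene Mt2 had differences of -0.29 and -0.24.

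Immediate-early genes, which neurons transcribe within minutes of activity, were spread widely among the CT0 mice. Of 31 measured genes 27 had a difference above 0 (median 0.18) and 6 did not overlap in the higher direction, against 5.95% of all genes. Without the 2 arrays rich in choroid plexus genes the median was 0.105, with 20 above 0. In those 4 mice 7 of the 31 did not overlap in the higher direction, against 5322 of all 24087 genes. Fos had levels of -1.18, -0.24 and -0.71 in CT18 mice 14, 15 and 16, against -2.14, -1.85 and 0.24 in CT0 mice 1, 2 and 3. CT0 mouse 3 was above all CT18 mice and the other CT0 mice below them, and the difference was 0.54 ± 0.59 (adjusted p = 1). Arc, a synaptic protein of the same class, had levels of 4.36, 4.70 and 4.14 at CT18, against 3.48, 3.53 and 4.62 at CT0, and Egr1, a transcription factor, 3.33, 3.50 and 2.91 at CT18, against 2.52, 2.84 and 3.78 at CT0. CT0 mouse 3 was the highest of the 6 mice for 15 of the 31 genes, CT18 mouse 15 for 9, and CT0 mouse 1 the lowest for 18. Within slides 1, 2 and 3 the list median was 0.54, -0.24 and 0.36, and slide 2 held CT0 mouse 3.

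Without CT0 mouse 3 the median of the 31 genes was 0.39, and 18 did not overlap in the higher direction, against 9.43% of all genes in the same 5 mice. The difference of Fos was then 1.29 and that of Arc 0.90. Maff, a small MAF transcription factor, and Klf2, a zinc finger factor, had unadjusted p of 0.0213 and 0.0221 with all mice (differences 0.56 ± 0.21 and 0.41 ± 0.15; adjusted p = 1 for both). Of 18 slower activity-induced genes 15 had a difference above 0 (median 0.11). Inhba, which encodes a subunit of activin, had levels of 0.02, 0.04 and 0.28 at CT18, against -0.47, -0.34 and -0.45 at CT0, a difference of 0.53 ± 0.13 (0.24 to 0.82; adjusted p = 0.854). Bdnf, a neurotrophin, differed by 0.15 ± 0.18 with overlapping groups.

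**Figure D3:**
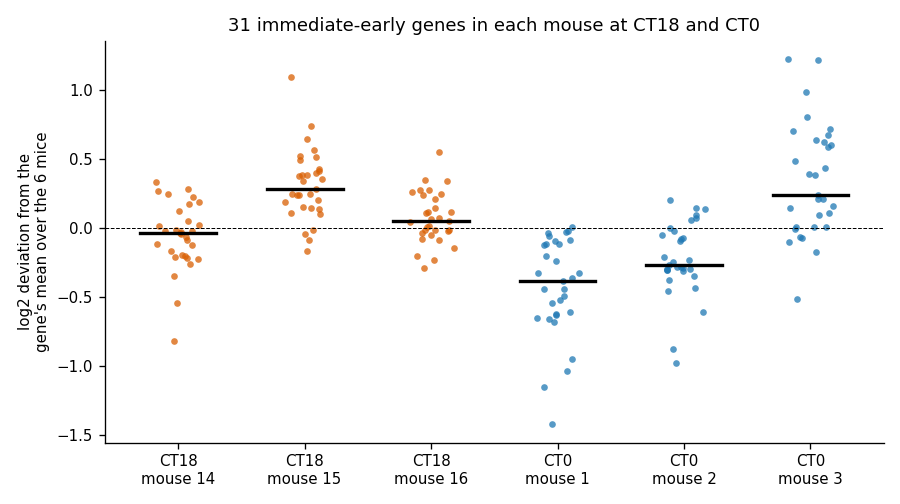
Log2 deviation of 31 immediate-early genes (dots) from each gene's mean over the 6 mice, by mouse, with the median of the list as a bar; CT18 mice are on the left and CT0 mice on the right. The medians are -0.04, 0.28 and 0.05 in CT18 mice 14, 15 and 16 and -0.39, -0.27 and 0.24 in CT0 mice 1, 2 and 3, so that CT0 mouse 3 lies beside the CT18 mice.

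Among 17 hypoxia and glucose genes 11 had a difference above 0 (median 0.11) and 6 did not overlap in the higher direction, against 5.95% of all genes. P4ha1, a subunit of the ER enzyme that hydroxylates collagen, had levels of 1.19, 1.09 and 1.17 at CT18, against 0.43, 0.60 and 0.51 at CT0. Its difference was 0.64 ± 0.15 (0.30 to 0.98; adjusted p = 0.830, and 0.0484 without CT12 mouse 11), and its 2 probes gave 0.64 and 0.69. Pfkfb3, an activator of glycolysis, differed by 0.48 ± 0.16, with 0.20 at its other probe, and the glucose transporter Slc2a1 by 0.31 ± 0.10 (both adjusted p = 1). Of the cold-inducible RNA-binding genes Cirbp had levels of 2.49, 2.95 and 2.61 at CT18, against 2.96, 3.27 and 3.09 at CT0. It was lower in every CT18 mouse (-0.42 ± 0.16; -0.77 to -0.07; adjusted p = 1), while Rbm3, its partner on the list, differed by 0.01 ± 0.15 (-0.32 to 0.33).

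Genes of synaptic transmission and memory lay near 0. The 22 glutamate receptor genes had a median of 0.04 and ran from -0.20 for Grm8 to 0.28 for Grik4, the 12 GABA-A receptor genes a median of 0.03, and the 15 genes of memory signalling a median of 0.04. Of 12 GABA-A receptor genes none had an unadjusted p under 0.05, and the same held for the other 2 of these lists. The median of the 20 cholesterol synthesis genes was 0.00 and that of 11 adenosine genes 0.05, where the deaminase gene Ada had a difference of -0.30 ± 0.14. The 20 genes of amino acid supply and tRNA charging, many of them targets of ATF4, had a median of 0.04 (0.11 without CT0 mouse 3, -0.02 without the 2 arrays rich in choroid plexus genes) and 0 with an unadjusted p under 0.05. All 31 proteasome genes had a difference above 0, from 0.02 to 0.15, but 28 of them were among the 6022 genes with the highest level, where 74.3% lay above 0. In 2 of the 31 the groups did not overlap in the higher direction, against 5.95% of all genes and 8.27% of those 6022. Under quantile normalization 25 of the 31 lay above 0 and their median was 0.03, against 0.08 in the main scale.

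The series was set up around genes of intellectual disability. Of 48 such genes considered here 33 had a difference above 0 (median 0.07) and 8 did not overlap in the higher direction, while 0 had an unadjusted p under 0.05. Of the 48 genes 23 belonged to the 6022 with the highest level, where 74.3% lay above 0 and 8.27% did not overlap. Under quantile normalization the median was 0.02, with 29 above 0. Nsd1, a histone methyltransferase gene, had the smallest p of them, with a difference of 0.17 ± 0.09 (-0.03 to 0.37; adjusted p = 1) and -0.01 at its other probe. Fmr1, the gene of fragile X syndrome, differed by 0.14 ± 0.11 with overlapping groups. The highest was Pak3, a kinase gene, with 0.24 ± 0.27. The lowest was Rps6ka3, another kinase gene, with -0.27 ± 0.18.

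**Figure D4:**
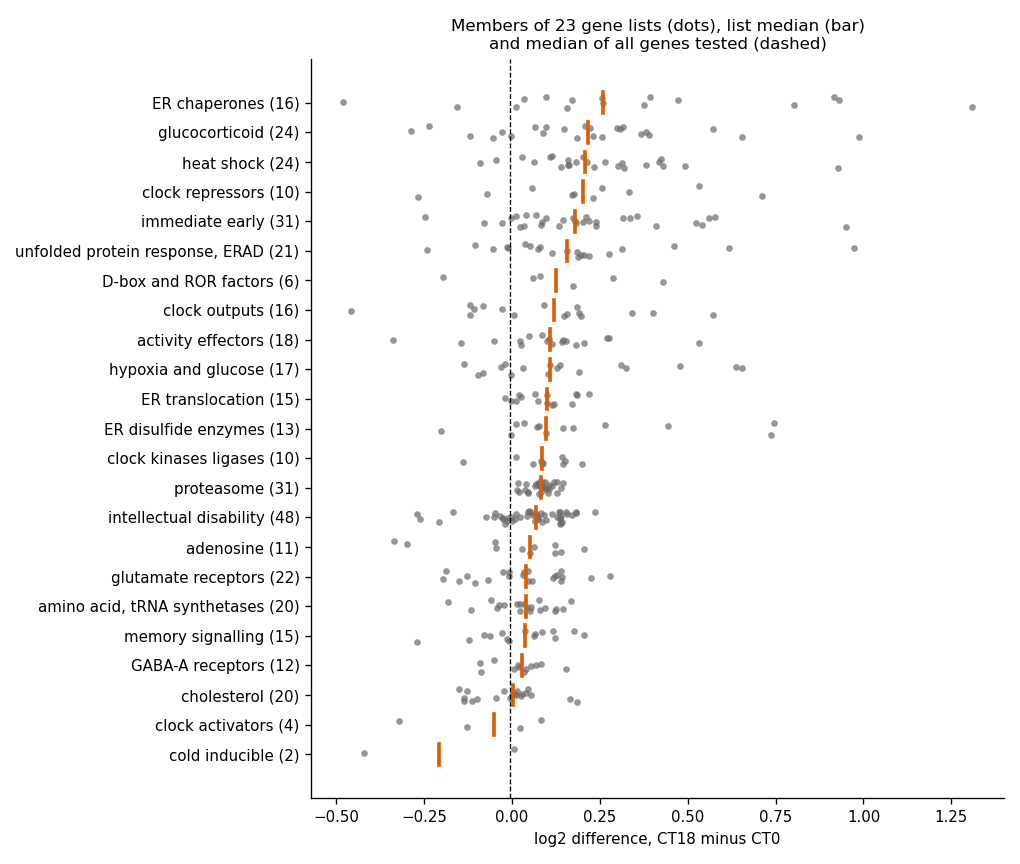
Log2 difference, CT18 minus CT0, of every measured member (dots) of 23 gene lists, with the list median (orange bar) and the median of all 24087 genes (dashed line); the number of measured genes stands after each name. ER chaperones (0.26), glucocorticoid-responsive genes (0.21), heat shock genes (0.21) and clock repressors (0.20) have the highest medians. Receptors, memory signalling and cholesterol genes have medians from 0.00 to 0.04. The order moved with the processing. Under quantile normalization clock repressors were at 0.25 and ER chaperones at 0.20. Without CT0 mouse 3 immediate-early genes were at 0.39, clock repressors at 0.28 and ER chaperones at 0.20.

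Beyond the lists, 3 further RefSeq genes had small p and a higher mean at CT18. Mkks, a chaperonin-like gene of Bardet-Biedl syndrome, had levels of 2.43, 2.53 and 2.74 at CT18, against 1.90, 1.92 and 2.01 at CT0 (0.62 ± 0.11; 0.37 to 0.88; adjusted p = 0.597). Zbtb40, a zinc finger gene, had levels of 1.86, 1.80 and 1.90 at CT18, against 1.18, 1.04 and 1.11 at CT0 (0.74 ± 0.14; 0.43 to 1.05; 0.597). Hexim1, an inhibitor of transcription elongation, differed by 0.38 ± 0.07 (0.22 to 0.53; 0.597). In all 3 genes the groups did not overlap. Fam83d, a gene of the mitotic spindle, had levels of -4.97, -5.05 and -5.01 at CT18, against -7.12, -6.24 and -7.40 at CT0, where 0 of 3 arrays had it well above background. On this scale it was therefore at least 1.41-fold higher at CT18 (adjusted p = 0.113), while after normexp background correction with quantile normalization the log2 difference was 0.32 (0.699), which is below that bound.

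The genes with the smallest p and a lower mean at CT18 belonged to none of the process lists. Nxnl2, a thioredoxin-like gene known from the retina, had levels of -6.66, -6.40 and -6.49 at CT18, with 0 of 3 arrays well above background, against -4.94, -5.17 and -4.81 at CT0. On this scale it was at least 1.71-fold higher at CT0 (adjusted p = 0.113, and 0.0117 without CT12 mouse 11), but the log2 difference was only -0.62 under quantile normalization and -0.09 after normexp (adjusted p = 1 for both). Arhgap33os, a transcript named for the strand opposite Arhgap33, was well above background on 0 of 3 CT18 arrays and on 1 of 3 CT0 arrays, with means of -7.29 at CT18 and -4.96 at CT0. Its CT0 mean thus rests mostly on arrays that did not detect it. Set against the dimmest probes well above background on the CT18 arrays, that mean was 1.72-fold higher (adjusted p = 0.185). For this gene the fold is no lower bound, because most CT0 arrays did not detect it. After normexp the log2 difference of Arhgap33os was -0.14 (adjusted p = 1). Lrrc29 had levels of -3.70, -3.63 and -3.74 at CT18, against -3.02, -2.81 and -3.09 at CT0, a difference of -0.72 ± 0.11 (-0.97 to -0.47; 0.218). Sec16b, a gene of ER exit sites, differed by -0.56 ± 0.11 (0.597), the melanotransferrin gene Meltf by -0.48 ± 0.10 (0.654) and the zinc finger gene Zfp992 by -0.58 ± 0.13 (0.666). Slamf9, known from immune cells, had a difference of -0.85 ± 0.18 (0.654). These 5 genes moved with the scaling. Under quantile normalization Lrrc29 differed by -0.44 and Sec16b by -0.07, and after normexp the 5 differences lay between -0.22 for Zfp992 and -0.05 for Sec16b, with -0.17 for Lrrc29 (adjusted p = 1 for each).

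A pair of glial genes were among those with a lower mean at CT18. Opalin, a membrane protein of myelinating oligodendrocytes, had levels of -0.28, -0.40 and -0.94 at CT18, against 0.11, 0.36 and 0.28 at CT0 (-0.79 ± 0.17; -1.16 to -0.41; adjusted p = 0.654). The 9 oligodendrocyte genes considered here had a median of 0.01, with 5 above 0, and the median was -0.07 without CT0 mouse 3, -0.05 under quantile normalization and -0.09 without the 2 arrays rich in choroid plexus genes. In 2 of the 9 (Opalin and Mag) every CT18 mouse lay below every CT0 mouse, against 5.31% of all genes, and in 0 the groups lay apart the other way. Fabp7, a lipid-binding protein of astrocytes and neural progenitors, had levels of 1.32, 1.65 and 1.79 at CT18, against 2.24, 2.61 and 2.46 at CT0 (-0.85 ± 0.18; -1.26 to -0.44; 0.654). The astrocyte list had a median of -0.04, with 2 of 10 genes above 0. Of the lists of non-neural tissue, the meninges had a median of -0.57 over 6 genes and the choroid plexus one of -0.42 over 10, with 0 genes not overlapping in either. These medians moved with single arrays. Without CT0 mouse 3 they were -0.91 and -1.34, and without the 2 arrays rich in choroid plexus genes -0.41 and 0.05. The summed level of the meninges list (log2, relative to the 75th percentile) ran from 4.34 to 4.78 at CT18 and from 4.54 to 5.27 at CT0, and that of the choroid plexus list from 1.0 to 7.46 at CT18 and from 1.11 to 8.38 at CT0. Their part in the differences of single genes was not tested.

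The same genes at CT6 and CT12 set the compared pair beside the other times of the series. Hours in darkness were 36 at CT0, 42 at CT6, 48 at CT12 and 30 at CT18. Circadian time and hours in darkness thus cannot be told apart in these means. All comparisons with CT18 or CT0 share those arrays, so that the means are given side by side only. The CT12 means include mouse 11, whose list medians were 4.60 for cerebellar, -2.42 for CA pyramidal and -1.65 for dentate granule markers. They also include mouse 10, whose list medians were 3.46 for choroid plexus and 1.38 for thalamus markers. The CT12 means were not recomputed without those arrays. Sdf2l1 averaged -0.32 ± 0.29 at CT0, -0.83 ± 0.07 at CT6, -0.56 ± 0.07 at CT12 and 0.99 ± 0.17 at CT18 (SD, n = 3 each), and Hspa5 averaged 4.30 ± 0.19, 3.90 ± 0.06, 4.12 ± 0.11 and 5.23 ± 0.13 in the same order. For both the CT18 mean stood apart and CT0 was the next highest. Per2 averaged -1.45 at CT0, -1.62 at CT6, -1.0 at CT12 and -0.74 at CT18, and Per3 -2.14, -2.02, -1.53 and -1.61. Both genes thus had higher means at CT12 and CT18 than at CT0 and CT6. Nr1d1 averaged 0.04 at CT0, 0.88 at CT6, 0.55 at CT12 and -0.23 at CT18, which placed both compared times below CT6 and CT12. Dbp averaged 4.15, 5.03, 5.52 and 4.58, and Ciart -3.84, -2.87, -1.98 and -3.61, with their highest mean at CT12 outside the compared pair. Plin4 averaged -1.08 at CT0, -1.52 at CT6, 0.98 at CT12 and -0.09 at CT18.

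**Figure D5:**
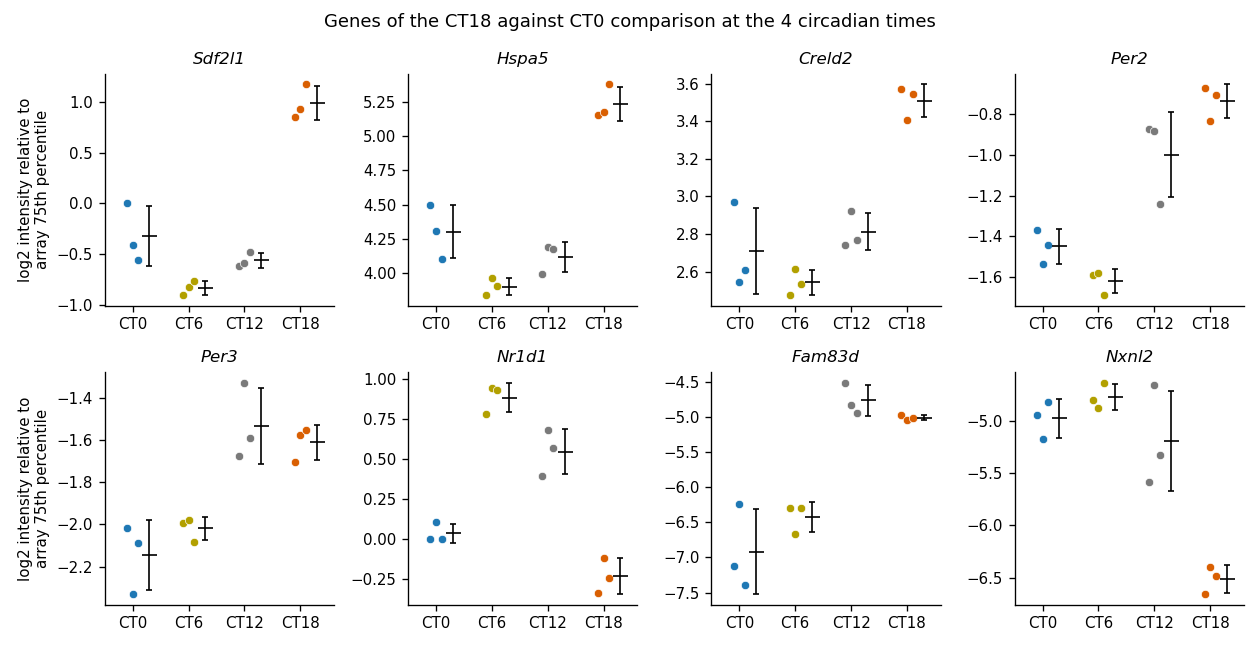
Level (log2 intensity minus the 75th percentile of the array) for 8 genes at CT0, CT6, CT12 and CT18; dots are mice (3 per time) and the bars to their right are mean and SD, and each panel has its own vertical range. Sdf2l1, Hspa5 and Creld2 are highest at CT18, Per2 and Per3 are high at CT12 and CT18, and Nxnl2 is lowest at CT18. Fam83d at CT0 and Nxnl2 at CT18 were not well above background. The CT12 mice include mouse 11, whose array carried cerebellar genes, and mouse 10, whose array was high in choroid plexus and thalamus markers.

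The array of CT0 mouse 3 had 5948 probes well above background on it alone. Their median level was -4.19 there and -7.45 on the other arrays, and 47.0% of them were probes for noncoding intervals, against 29.1% of all probes. RefSeq symbols were found for 29.9% of them, against 53.3% of all probes. The RefSeq genes with the largest gap to the next array were Slc51a, a bile acid transporter subunit, at 8.97 there and at most -6.68 elsewhere, then Sowahd, the olfactory receptor gene Olfr592, Fhl4, Spin2-ps1 and the inhibin subunit gene Inhbc, with gaps of 4.62 to 6.19. Among tested genes 328 were highest on this array by more than 1 log2 unit. Among the 6022 genes with the lowest level the median difference was -0.19 with all 6 arrays and -0.05 without it, while among the 6022 with the highest level it was 0.05 in both cases.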

How the data were processed

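RNA of 12 mice, labelled as hippocampus, was measured on 1-colour Agilent arrays, 1 per mouse. Per the file headers, Agilent Feature Extraction 10.7.3.1 gave the background-subtracted processed signal, an intensity that is not scaled between arrays, and the flags used are other columns of the same files. Per the file headers, probe coordinates are on mm9. The authors' deposited value table holds log2 values with identical medians, and how they were scaled is not given in the sources used here. It served as an alternative.

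Each intensity was turned into log2 and reduced by the 75th percentile of its array (control probes left out). Of 55681 probes, 146 were dropped for a missing value, and the 33966 that were well above background on every array of some time were kept. The brightest probe stood for its gene. Names came from RefSeq (GRCm38.p6) for 26679 probes through their accession, for 2543 through the symbol and for 474 through a synonym, while 25985 kept the name on the array. RefSeq coordinates were used for promoters alone. Slide was not a term of the main fit. It was a block in alternatives, and differences within each slide are given.

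One limma fit (limma 3.58.1, R 4.3.3) over 12 arrays with a mean per time gave CT18 minus CT0, its SE, 95% interval and p, with Benjamini-Hochberg adjustment over 24087 genes and a threshold of 0.05. Genes with a group not well above background on any array have a fold as a lower bound, set against the dimmest probe well above background or the gene's own value where higher. For Arhgap33os, whose CT0 mean rests mostly on arrays that did not detect it, this fold is no lower bound. The rule for named genes took all clock genes of 3 lists, up to 15 called genes per direction, filled to 10 by the smallest p where fewer passed, up to 4 members of each other process list, and 6 genes from CT0 mouse 3. A few genes that the rule or the lists took in are not reported here, and their lists are described without them; they stayed in the fit. Further list members are named as examples, chosen after their values were seen. The comparison, the 23 process lists and the 15 cell type lists were chosen with earlier results of these data known, so that a pattern in them is no independent support. In simulated data for CT18 against CT0 (24087 genes, 50 changed per fold) the share of changed genes recovered was 24% at 1.5-fold, 56% at 2-fold, 74% at 3-fold and 86% at 4-fold, with 15 unchanged genes among 135 called.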

Additional observations from a re-analysis of the deposited data

How the results depend on the processing

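The count of genes past the threshold, 0 in the main fit, changed with the variance model and with single arrays. It was 1 with median centring (Arhgap33os), 1 with normexp background correction and quantile normalization (Sdf2l1), 3 with a trended, robust variance (Hspa5, Manf and Sdf2l1) and 14 with array quality weights (11 higher and 3 lower at CT18). The weights ran from 0.103 for CT12 mouse 11 to 4.96 for CT12 mouse 10. Leaving out each array in turn gave 0 to 5 genes: 1 without CT0 mouse 1 (Sdf2l1), 1 without CT0 mouse 2 (Fam83d), 5 without CT12 mouse 11 and 0 without any of the other 9, CT0 mouse 3 among them. Added after the data were seen, the fit without CT12 mouse 11 and with slide as a block called 1 gene (Nxnl2), and those without CT12 mouse 11 and CT0 mouse 3, or with the 6 compared arrays and slide as a block, called 0. The count was also 0 with quantile normalization, the deposited table, 3 other filters and the median over probes. It was 0 with slide as a block (1644 genes with an unadjusted p under 0.05, against 963) and with the 6 compared arrays (1335). It was 0 too without CT18 mouse 14 and CT0 mouse 1, a fit that kept the CT6 and CT12 arrays rich in choroid plexus genes. The cause of these changes was not tested.

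By replicate number no paired analysis was possible because the mouse numbers in the labels are unique to a mouse; the fits with slide as a block pair the times by slide. Of 1086 values of 39 genes under 28 alternatives, 1044 kept their direction and side of the threshold, 22 crossed it, 20 changed sign without being called, and 30 genes kept their sign throughout. Median centring moved the median of all genes to 0.23, against -0.01, and each list median by a similar amount; relative to that shift 56 of the 65 ER genes lay above the median of all genes. With 3 mice per time, differences of 1.5-fold are mostly missed.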
